A study of Mus musculus with 39 samples.

Results

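The 40 genes described here encode proteins that copy DNA and proteins that separate the copied chromosomes. They were taken by symbol, or by Ensembl ID in 1 table without symbols, from a list of 21 DNA replication genes and 19 mitosis genes. All 40 were found in 4 of the 5 deposited tables, which list 17993 to 30849 genes, and 39 were found among the 20354 genes of the germ cell induction table, where Lig1 was not analysed.

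Cells license replication origins in G1 by loading the MCM helicase with the help of Cdc6 and Cdt1. In S phase Cdc45 and the GINS complex activate the helicase, and polymerases held by a sliding clamp copy both strands. Cyclin B with Cdk1 drives entry into mitosis, and Cdc20 with the anaphase-promoting complex drives the exit. Transcripts of the first set peak around G1/S and are classic targets of E2F factors, whereas transcripts of the second set peak in G2/M and are known for control by the MuvB complex. Granulosa cells are somatic cells of the ovarian follicle, and mouse pluripotent stem cells divide fast with a short G1.

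The study turned granulosa cells of the mouse strain C57BL6/CBA into pluripotent lines and then into germ cells, and all groups, embryos included, carry this strain. RNA of 39 libraries in 14 groups was sequenced to ask which somatic cell the day 16 cells resemble, what crotonic acid changes, how the lines differ, and how germ cells are induced. Granulosa cells (GC), embryonic fibroblasts (MEF), reprogramming cells at day 16 (labelled XEN), reprogramming cells at day 28, day 28 cells given 7 mM crotonic acid from day 16 to day 28, and a female ES line had 2 libraries each. The gPSC lines 2, 4, 10, 11, 15 and 16 came from granulosa cells and had 1 library each. The induction table held 7 groups of 3 libraries: a female ESC line, the line gPSC4, epiblast-like cells (EpiLC) of both origins after 2 days with KSR, bFGF and Activin A, primordial germ cell-like cells (PGCLC) of both origins after 4 further days with BMP4, SCF, EGF and LIF, and germ cells taken from embryos at E12.5 (primordial germ cells, PGC). ESC and gPSC4 are 1 line each, so a difference between origins is a difference between these lines. The labels do not say whether libraries of a group came from separate cultures or animals, so a p-value here reflects the spread over the libraries, which may be technical. That spread is taken over all groups of a table together, and in the table of the lines it is the spread between lines.

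Levels are FPKM, fragments counted per transcript length and scaled to the size of the library, and differences are on the log2(FPKM + 1) scale, which understates changes of low genes. Comparisons stay within a table. Called means an adjusted p below 0.05 (limma, Benjamini-Hochberg over all genes tested) together with an absolute difference of 1 log2 or more. Each library had 11268 to 12979 genes at 1 FPKM or more. Reads recovered for the induction table summed to 6107203 to 25223768 a library, over the 16966 of 20354 genes for which they could be recovered. ESC libraries had the most, at 19827033 to 25223768, and every other library had at most 17551245. Depth is unknown for the other tables. Granulosa markers summed to 11204 and 10273 FPKM in the granulosa libraries, and 10 of 10 pluripotency markers reached 1 FPKM in each gPSC line. In the reprogramming table libraries of a group differed with transcript length, with a Spearman correlation across 10050 genes between length and the difference of replicate 1 from 2 of -0.69 at day 16, -0.45 at day 28 and -0.53 with acid. That correlation was 0.38 for the difference of day 28 from day 16 and -0.11 for that of acid from none. In bulk RNA, fewer cells of a type and less RNA per cell cannot be told apart.

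Promoter sequences are shown because the gene sets are known for different control elements. RefSeq windows of GRCm38.p6, from 250 bases before to 50 after a gene's start, were at hand for 33 of the 40 genes, as 37 windows. Both strands were searched for E2F letters (TTCCCGC as the usual word, with TTGGCGC as well as TTCGCGC and the rarer TTGCCGC), for the letters of the cell cycle genes homology region (TTTGAA) and for the CCAAT box (CCAAT). None of these words contains another, but CCAAT on the reverse strand can share letters with TTGGCGC. E2F letters stood in 15 of 22 windows of replication genes (68.2%) and in 3 of 15 windows of mitosis genes (20.0%), beside 9.57% of all 32851 windows. TTTGAA was instead most frequent in mitosis windows, with 13.6% of replication windows, 66.7% of mitosis windows and 17.9% of all windows. CCAAT stood in 59.1%, 86.7% and 37.4% in the same order. TTTGAA and CCAAT stood together in 10 of 15 mitosis windows, 2 of 22 replication windows and 6.95% of all windows. A match describes letters and is not evidence of a bound factor.

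Printed are the windows of the 3 genes of each set, among genes with a window, that most often ranked among the 4 largest differences of their set with groups that did not overlap, ties taken by name. Gins2, which ranked there most often of the replication genes, was not among the windows at hand. Capitals mark the searched letters on either strand, and each sequence runs 5′ to 3′ along its gene.
Cdc6, chr11:98907901-98908200, plus strand: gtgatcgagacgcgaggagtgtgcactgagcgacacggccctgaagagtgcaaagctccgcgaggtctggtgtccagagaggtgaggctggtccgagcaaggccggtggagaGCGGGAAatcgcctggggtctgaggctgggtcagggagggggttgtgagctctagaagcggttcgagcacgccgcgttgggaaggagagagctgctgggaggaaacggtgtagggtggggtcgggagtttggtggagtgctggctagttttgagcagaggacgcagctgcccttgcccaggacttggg
Rfc4, chr16:23127681-23127980, minus strand: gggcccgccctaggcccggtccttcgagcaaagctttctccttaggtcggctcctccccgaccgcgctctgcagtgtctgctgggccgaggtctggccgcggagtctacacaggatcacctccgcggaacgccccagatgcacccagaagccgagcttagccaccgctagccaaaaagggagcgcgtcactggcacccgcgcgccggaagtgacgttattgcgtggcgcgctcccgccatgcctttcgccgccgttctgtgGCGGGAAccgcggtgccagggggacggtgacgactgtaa
Mcm10, chr2:5012742-5013041, minus strand: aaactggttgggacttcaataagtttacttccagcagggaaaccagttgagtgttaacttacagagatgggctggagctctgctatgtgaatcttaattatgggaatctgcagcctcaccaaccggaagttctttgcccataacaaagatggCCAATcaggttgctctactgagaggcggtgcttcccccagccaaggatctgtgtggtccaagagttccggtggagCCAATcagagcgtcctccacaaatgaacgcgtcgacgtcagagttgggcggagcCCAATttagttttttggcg
Mki67, chr7:135716330-135716629, minus strand: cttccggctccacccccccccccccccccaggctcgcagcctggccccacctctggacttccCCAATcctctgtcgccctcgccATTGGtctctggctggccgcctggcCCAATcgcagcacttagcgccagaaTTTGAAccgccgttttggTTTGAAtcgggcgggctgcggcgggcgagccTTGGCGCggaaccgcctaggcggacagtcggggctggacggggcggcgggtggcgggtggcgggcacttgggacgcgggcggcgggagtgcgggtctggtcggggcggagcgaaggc
Cdc20, chr4:118437294-118437593, minus strand: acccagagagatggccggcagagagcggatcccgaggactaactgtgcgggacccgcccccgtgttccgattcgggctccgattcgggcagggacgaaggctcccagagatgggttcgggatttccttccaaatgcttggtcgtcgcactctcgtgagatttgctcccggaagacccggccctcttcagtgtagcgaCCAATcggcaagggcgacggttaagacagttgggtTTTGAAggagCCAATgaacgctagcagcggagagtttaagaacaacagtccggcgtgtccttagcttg
Nusap1, chr2:119618048-119618347, plus strand: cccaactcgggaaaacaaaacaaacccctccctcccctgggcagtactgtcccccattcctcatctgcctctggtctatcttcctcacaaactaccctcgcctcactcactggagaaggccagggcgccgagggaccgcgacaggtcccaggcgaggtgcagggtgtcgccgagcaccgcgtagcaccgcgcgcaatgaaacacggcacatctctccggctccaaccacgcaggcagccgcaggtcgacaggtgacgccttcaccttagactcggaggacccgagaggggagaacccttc
Cdc6 and Rfc4 each hold 1 E2F word, read on the reverse strand as GCGGGAA, and neither of the other motifs. Mcm10 holds 3 CCAAT boxes alone. Mki67 holds all 3 kinds of letters, with 2 TTTGAA words, 3 CCAAT boxes and 1 E2F word. Cdc20 holds 1 TTTGAA word and 2 CCAAT boxes, and Nusap1 has none of these letters in its window.

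**Figure D1:**
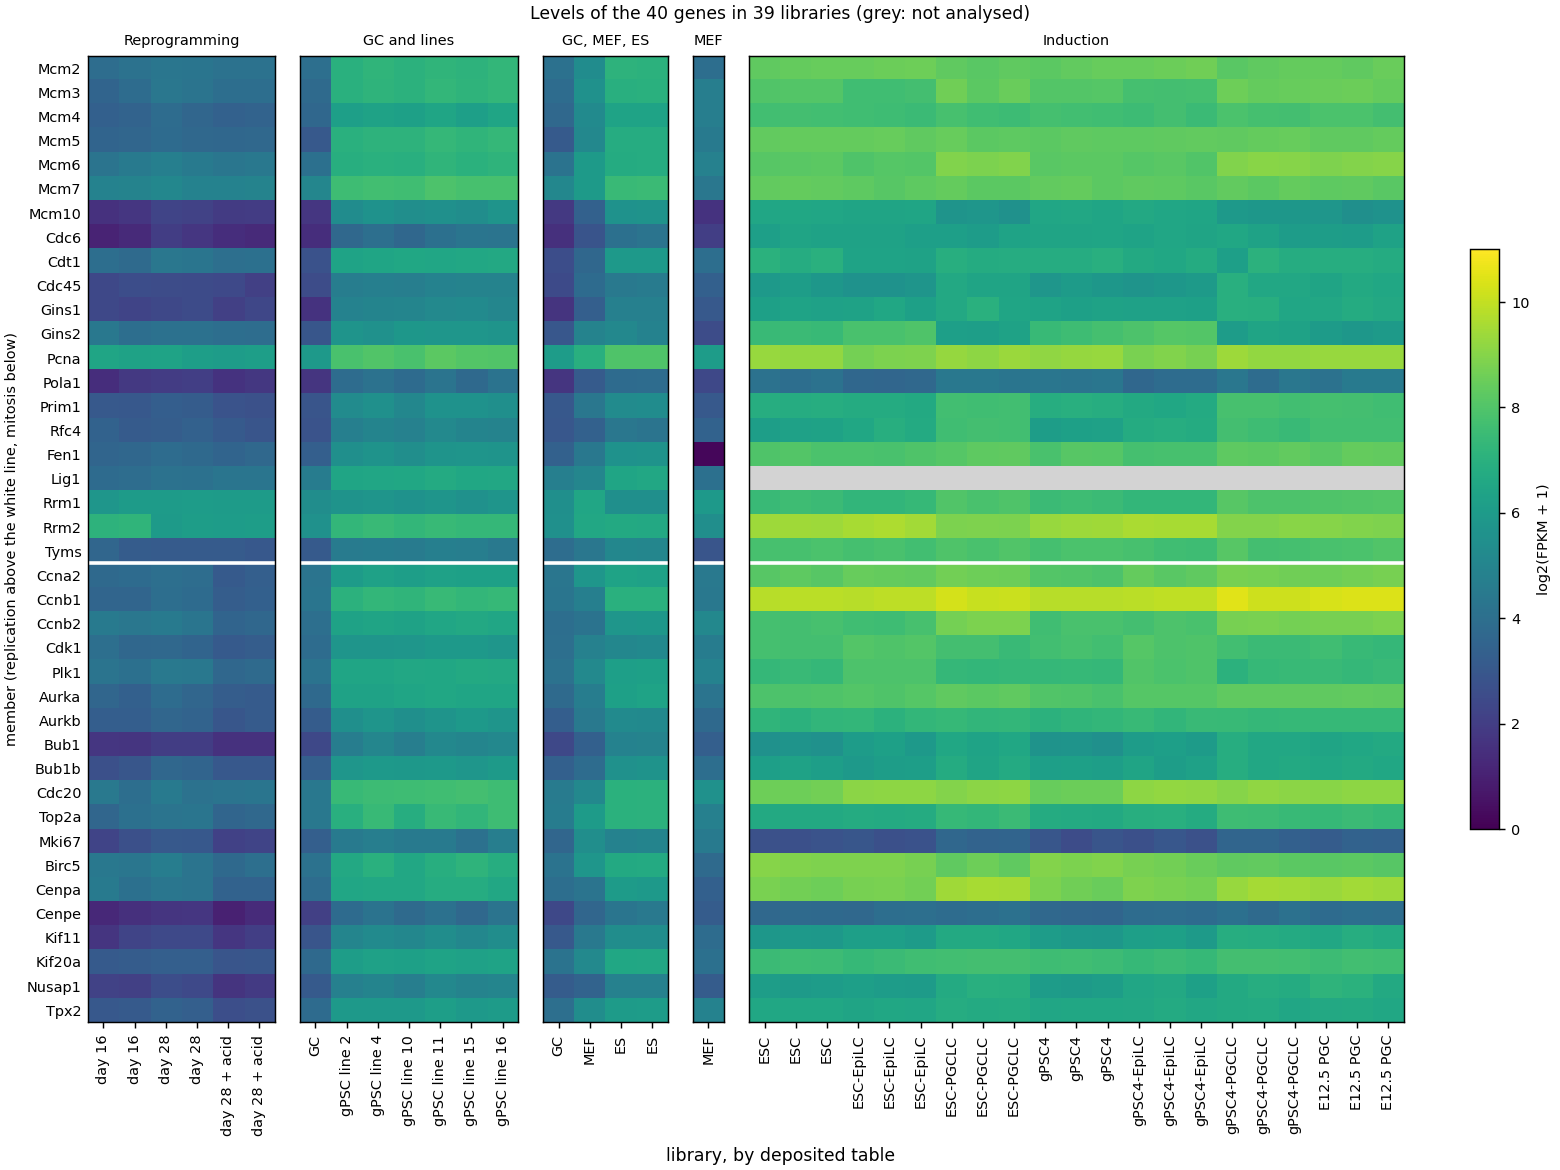
Colour shows log2(FPKM + 1) of the 40 genes, ordered by role, in the 39 libraries, grouped by deposited table, and grey marks Lig1 where it was not analysed. Levels of 39 genes are at least 1 log2 higher in the gPSC lines than in the granulosa library of the same table, and Rrm1 is the exception at 0.29 log2.

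Granulosa cells had low levels of both sets, and the gPSC lines obtained from them had high levels. Of 21 replication genes 20 were called higher in the lines, and of 19 mitosis genes 19 were, where 21.8% of 13797 genes tested were called higher. None was lower. The median difference was 2.55 log2 for replication genes and 2.49 log2 for mitosis genes, beside 0.09 log2 for all genes. This table holds 1 granulosa library, which was assumed to vary as the 6 lines do. The other granulosa library was deposited beside ES cells, where 20 of 21 replication genes and 19 of 19 mitosis genes were at least 1 log2 higher in ES cells, against 19.9% of genes.

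Helicase and origin-licensing genes led the difference. Mcm5, a subunit of the MCM helicase, was at 7.44 FPKM in granulosa cells and at 126, 143 and 158 FPKM in the lowest, the median and the highest line (4.11 log2, SE 0.13, adjusted p 2.1e-07). Mcm10, which helps to activate the helicase, was at 2.34 FPKM and at 39.9, 43.7 and 50.03 FPKM in the same order (3.76 log2, SE 0.13, adjusted p 3.4e-07). For both genes every line lay far above the granulosa library. Cdt1, the MCM loader that is degraded in S phase, was at 5.88 FPKM in granulosa cells and at 81.3, 91 and 97.4 FPKM in the lines (3.74 log2, SE 0.11, adjusted p 1.4e-07). Gins1, of the GINS complex, was at 2.06 FPKM and at 28.7, 31.7 and 37.5 FPKM (3.45 log2, SE 0.14, adjusted p 7.1e-07). By role, the median difference was 3.03 log2 for the 6 MCM subunits and 3.12 log2 for the 6 loading and activation factors (Mcm10, Cdc6, Cdt1, Cdc45, Gins1 and Gins2).

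Genes of DNA synthesis and nucleotide supply differed by less. Pcna, the sliding clamp, was at 61.3 FPKM in granulosa cells and at 231, 260.5 and 299 FPKM in the lowest, the median and the highest line (2.05 log2, SE 0.14, adjusted p 8.6e-06). The median was 2.22 log2 for the 6 genes of clamp, clamp loader, polymerase alpha, primase, flap removal and ligation, and 1.49 log2 for Rrm1, Rrm2 and Tyms. Rrm1, the large subunit of ribonucleotide reductase, was at 40.5 FPKM in granulosa cells and at 46, 50.5 and 52.1 FPKM in the lines. All 6 lines lay above the granulosa library, but the difference was below the minimum (0.29 log2, SE 0.09, adjusted p 0.025), which made Rrm1 the 1 gene of the 40 that was not called. Rrm2, the subunit made in S phase, was at 46.7 FPKM and at 153, 159 and 173 FPKM (1.77 log2, SE 0.09, adjusted p 2.6e-06). In the other table Rrm1 was at 43.3 FPKM in granulosa cells and at 43.1 and 43 FPKM in ES cells.

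Mitosis genes followed with a narrower range of differences. Cdc20, which activates the anaphase-promoting complex, was at 20.00 FPKM in granulosa cells and at 168, 189.7 and 210.3 FPKM in the lowest, the median and the highest line (3.18 log2, SE 0.12, adjusted p 4.2e-07). Ccnb1, cyclin B1, was at 18.5 FPKM and at 132, 155 and 169.9 FPKM (2.98 log2, SE 0.13, adjusted p 1.1e-06). Both were higher in each line than in granulosa cells. Top2a, the topoisomerase that untangles sister chromatids, was at 20.2 FPKM and at 115, 159 and 192 FPKM (2.84 log2, SE 0.26, adjusted p 3.9e-05). Cenpa, the histone variant of centromeres, was at 13.8 FPKM and at 90.7, 96.2 and 113 FPKM (2.77 log2, SE 0.13, adjusted p 1.6e-06). Mki67, the Ki-67 protein that coats mitotic chromosomes and serves as a proliferation marker, differed least of the 19, from 9.16 FPKM to 16.3, 21.8 and 25.5 FPKM (1.16 log2, SE 0.21, adjusted p 0.0014). No line overlapped the granulosa library for any of the 40 genes, all of them higher, where 45.6% of genes were higher in every line than in that single library.

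**Figure D2:**
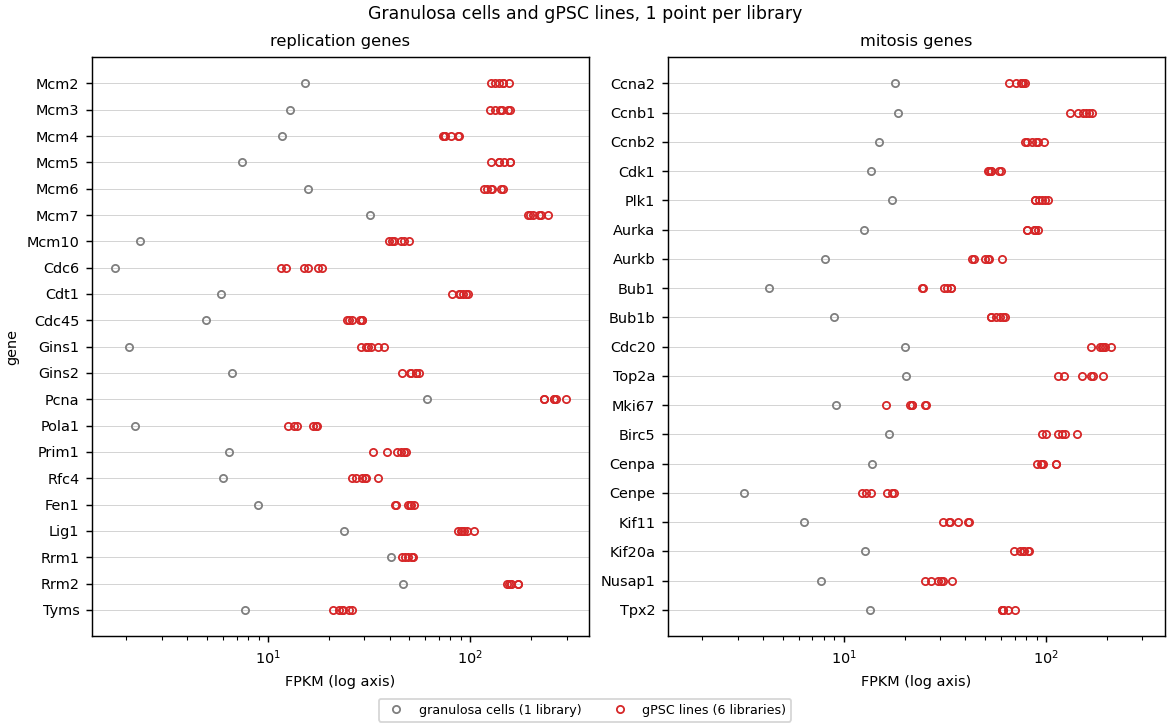
Each circle is the level of 1 gene in 1 library, in FPKM on a log axis, for the granulosa library and the 6 gPSC lines. The lines lie to the right of the granulosa library for each gene, by the smallest distance for Rrm1 (40.5 against 46 to 52.1 FPKM).

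Cell cycle genes outside the 40 differed in the same direction, with exceptions among regulators. Of 39 other replication genes 36 were called higher and 0 lower, and of 42 other mitosis genes 40 higher and 0 lower, with medians of 1.85 and 2.01 log2. Among all genes tested, 21.8% were called higher. Ticrr, which helps to fire origins, rose from 1.48 to 27.8 FPKM (3.53 log2, SE 0.19, adjusted p 2.7e-06), and Espl1, the protease separase, from 2.28 to 32.1 FPKM (3.33 log2, SE 0.16, adjusted p 1.6e-06). Of 19 cell cycle transcription factors 6 rose and 1 fell. Mybl2, the B-Myb partner of MuvB, rose from 3.64 to 239.7 FPKM (5.69 log2, SE 0.12, adjusted p 4.7e-08), and Rbl2, the p130 pocket protein, fell from 14.6 to 3.10 FPKM (-1.93 log2, SE 0.17, adjusted p 2.8e-05). Of 17 entry and checkpoint regulators 11 rose and 1 fell. Ccne1, cyclin E1, rose from 2.57 to 95.1 FPKM (4.74 log2, SE 0.15, adjusted p 2.0e-07), and Cdkn1b, the p27 inhibitor of cyclin-dependent kinases, fell from 169 to 9.01 FPKM (-4.09 log2, SE 0.13, adjusted p 2.3e-07). Fibroblast markers were also higher, 13 of 13 called, with sums of 1043 to 2179 FPKM in the lines and 66.9 FPKM in granulosa cells, and their part in these results was not tested.

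The fibroblast library deposited beside granulosa and ES cells lay between them for 37 of 40 members. The share of all genes that did so is not given here. In that library, 15 of 21 replication genes and 10 of 19 mitosis genes were at least 1 log2 higher than in granulosa cells, against 11.7% of genes, with medians of 1.33 and 1.01 log2. Mcm5 was at 7.69 FPKM in granulosa cells, 33.7 in fibroblasts and 113 and 111 in ES cells. Ccnb1 was at 18.1, 25.6 and 127 and 124 FPKM, and Pcna at 66, 122 and 247 and 251 FPKM. Mki67 and Rrm1 were highest in fibroblasts, and Gins2 lay between the ES libraries. Mki67 was at 11.3 FPKM in granulosa cells, 42.5 in fibroblasts and 28.1 and 29.9 in ES cells, and Rrm1 was at 89.5 FPKM in fibroblasts. In the other fibroblast library Mcm5 was at 21.9 FPKM, Pcna at 66.4, Ccnb1 at 19.9 and Mki67 at 21.4. That library listed Fen1, the flap endonuclease of Okazaki fragments, at 0.135 FPKM, where the first had 20.3 FPKM. The fibroblast libraries stand in separately made tables of 30849 and 17993 listed genes, whose part in the Fen1 gap was not tested. These single libraries were not tested.

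From day 16 to day 28 of reprogramming, Rrm2 alone of the 40 genes was called, where 5.34% of 13266 genes tested were called in either direction. Rrm2 was at 138 and 146 FPKM at day 16 and at 62.3 and 68.5 FPKM at day 28. Both day 28 libraries lay below both day 16 libraries (-1.11 log2, SE 0.09, adjusted p 0.0012). Under quantile normalization its difference was -0.97 log2, short of the minimum. Its partner Rrm1 was at 53.6 and 64.5 FPKM at day 16 and at 64.1 and 65.8 FPKM at day 28, with overlap.

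The other members that differed were higher at day 28, each by less than 1 log2. By adjusted p alone, with no minimum difference, 7 of the 40 differed, where 22.5% of genes did: 4 replication and 2 mitosis genes were higher, and Rrm2 was lower. Of all 13266 genes tested, 2269 were higher and 716 lower by the same rule, so most genes that passed were higher as well. Cdc6 was at 1.11 and 1.49 FPKM at day 16 and at 3.0 and 2.35 FPKM at day 28 (0.68 log2, SE 0.15, adjusted p 0.026). Bub1b, the BubR1 protein of the spindle checkpoint, was at 5.49 and 6.79 and then at 11.9 and 10.5 FPKM (0.78 log2, SE 0.13, adjusted p 0.01). Neither gene overlapped between the days. Mcm3, another helicase subunit, was at 10.7 and 14 and then at 19.6 and 17.6 FPKM (0.56 log2, SE 0.14, adjusted p 0.035), Mcm10 at 2.01 and 2.37 and then at 3.74 and 3.46 FPKM (0.53 log2, SE 0.12, adjusted p 0.026), and Mki67 at 3.76 and 5.39 and then at 7.35 and 7.26 FPKM (0.59 log2, SE 0.16, adjusted p 0.048). Mcm5 and Ccnb1 did not pass, at 10.8 and 11.5 and then 13.5 and 12.2 FPKM and at 11.2 and 11 and then 14.9 and 13.5 FPKM (adjusted p 0.19 and 0.063). Pcna overlapped, at 88 and 79.1 and 81.4 and 71.9 FPKM.

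The median difference was 0.19 log2 for replication genes and 0.28 log2 for mitosis genes, beside 0.15 log2 for all genes. Under median-ratio scaling these were 0.0328, 0.122 and 0.00 log2, and under quantile normalization 0.0342, 0.0197 and -0.02 log2. The number of members passing by adjusted p alone rose without day 16 replicate 2 and fell without either day 28 library. Each such fit has 1 library in a group, so its count is not given. Kif11, the motor that pushes spindle poles apart, and Top2a had the next largest differences among mitosis genes without passing (0.46 and 0.41 log2, adjusted p 0.15 and 0.093). Outside the 40, Mybl2 rose from 4.18 to 9.85 FPKM (1.07 log2, SE 0.18, adjusted p 0.011) and Cdc7, the kinase that fires origins, rose from 1.46 to 3.88 FPKM (1.00 log2, SE 0.15, adjusted p 0.0074). These were 1 of 19 transcription factors and 1 of 39 other replication genes, and of 42 other mitosis genes and 17 regulators 0 were called. Among all genes tested, 5.34% were called in either direction. Pluripotency markers, 5 of 10 called higher at day 28, summed to 0.890 and 1.64 FPKM at day 16 and 36.8 and 32.5 FPKM at day 28. Extraembryonic endoderm markers, 6 of 11 called higher, summed to 272 and 306 and 422 and 427 FPKM, and fibroblast markers, 2 of 13 called higher, to 1045 and 1104 and 1386 and 1444 FPKM. The part of these cells in the members' differences was not tested.

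With crotonic acid, a short-chain fatty acid that cells can use for histone crotonylation, 9 of 19 mitosis genes and 1 of 21 replication genes were lower at day 28 by adjusted p alone, where 4.21% of genes were. These passes did not hold with any 1 of the 4 compared libraries left out. Such a fit has 1 library in a group, and the share of all genes passing in it is not given here. It therefore shows nothing particular to the members. None of the 40 was called by limma, where 2.05% of genes were called in either direction, and 21 had an unadjusted p under 0.05, all of them lower, where 21.6% of genes had one in either direction. Both acid libraries lay below both untreated libraries for 34 of 40 genes, 16 of replication and 18 of mitosis, where 39.5% of genes did. The median difference was -0.58 log2 for mitosis genes, -0.24 log2 for replication genes and -0.05 log2 for all genes. The untreated day 28 libraries are the same as in the comparison with day 16.

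Mki67 had the largest difference, at 7.35 and 7.26 FPKM without acid and 3.35 and 3.83 FPKM with it (-0.86 log2, SE 0.16, adjusted p 0.033). Cenpa was at 18.7 and 17.6 FPKM without and 10.03 and 9.99 FPKM with acid (-0.80 log2, SE 0.16, adjusted p 0.043). Ccnb2, cyclin B2, was at 21.1 and 18.6 FPKM and 10.7 and 11.8 FPKM (-0.76 log2, SE 0.12, adjusted p 0.019). For these genes both acid libraries lay below both untreated libraries. Nusap1, which bundles spindle microtubules, was at 5.0 and 4.41 FPKM and 2.12 and 2.62 FPKM (-0.76 log2, SE 0.13, adjusted p 0.023), and Ccnb1 was at 14.9 and 13.5 FPKM and 8.43 and 9.21 FPKM (-0.63 log2, SE 0.10, adjusted p 0.02). Plk1, the polo kinase of mitotic entry, was at 20.6 and 20.2 FPKM without and 11.6 and 13.1 FPKM with acid. Cdc20 was the 1 mitosis gene whose groups overlapped, at 21.7 and 16.8 FPKM without and 18 and 18.5 FPKM with acid (-0.06 log2, SE 0.18, adjusted p 0.89).

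Among replication genes Prim1, the primase that lays down RNA primers, alone passed the adjusted p, at 8.79 and 8.32 FPKM without acid and 5.99 and 5.70 FPKM with it (-0.48 log2, SE 0.10, adjusted p 0.04). Cdc6 was at 3.0 and 2.35 FPKM and 1.75 and 1.5 FPKM (-0.48 log2, SE 0.15, adjusted p 0.13), and Mcm3 at 19.6 and 17.6 FPKM and 14.6 and 14.7 FPKM (-0.33 log2, SE 0.14, adjusted p 0.25). Neither passed, although both acid libraries were lower. Rfc4, of the complex that loads the clamp, was at 8.53 and 9.52 FPKM and 7.68 and 6.43 FPKM, Mcm5 at 13.5 and 12.2 FPKM and 11.9 and 12 FPKM, and Pcna at 81.4 and 71.9 FPKM and 67.6 and 70.4 FPKM (adjusted p 0.28, 0.66 and 0.5). Lig1, the ligase that joins Okazaki fragments, was the 1 gene higher in both acid libraries, at 16.7 and 16.1 FPKM without and 18.4 and 18.1 FPKM with acid (adjusted p 0.4). By role, the median was -0.63 log2 for the 7 cyclins and kinases, -0.61 for the 9 chromosome and spindle genes, -0.43 for Bub1, Bub1b and Cdc20, -0.27 for loading and activation factors, -0.25 for clamp, primase and ligation genes, -0.21 for MCM subunits and 0.00 for the nucleotide genes.

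**Figure D3:**
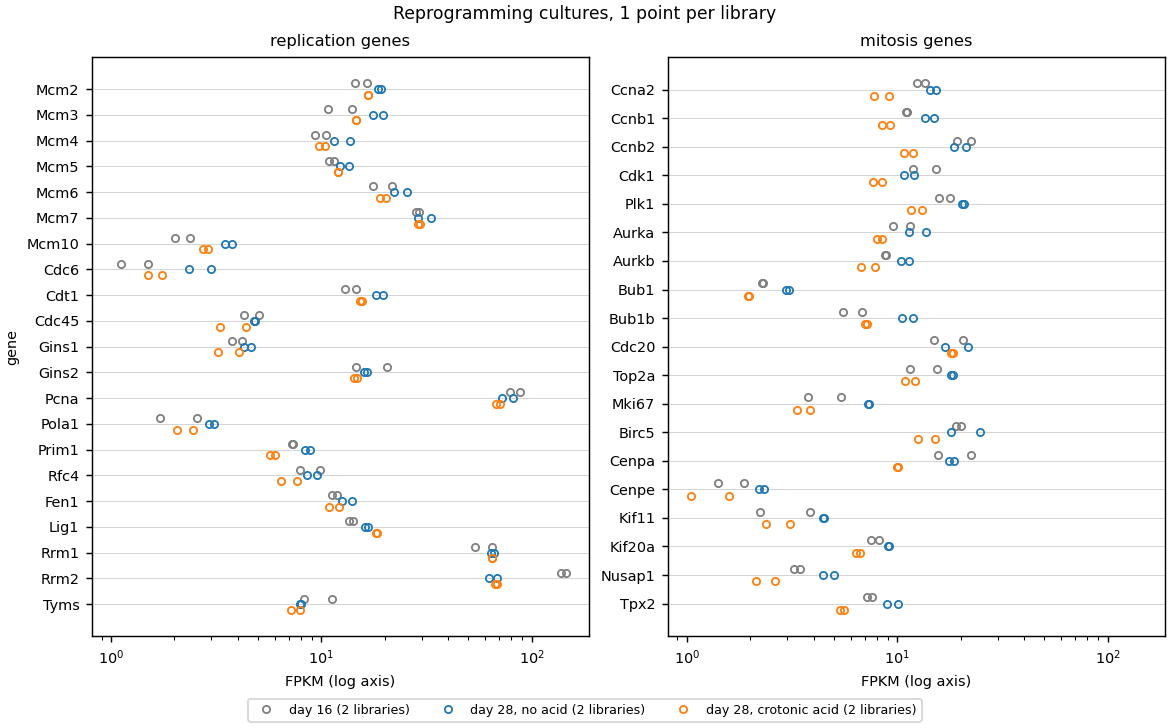
Each circle is the level of 1 gene in 1 library, in FPKM on a log axis, for the day 16, untreated day 28 and crotonic acid day 28 libraries. Both acid libraries lie left of both untreated day 28 libraries for 18 of 19 mitosis genes and 16 of 21 replication genes, and Rrm2 drops from 138 and 146 FPKM at day 16 to 62.3 and 68.5 FPKM at day 28.

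Of the other cell cycle genes, 0 were called with crotonic acid among 39 replication genes, 42 mitosis genes, 19 transcription factors and 17 regulators, with medians of -0.19, -0.44, -0.21 and -0.19 log2. By adjusted p alone 11 of the mitosis genes, 1 of the regulators, 0 of the replication genes and 0 of the transcription factors were lower and 0 were higher. Of all 13266 genes tested, 558 were lower and 399 higher by that rule, and 2.05% were called in either direction. Markers of cell types differed with the acid as well. Pluripotency markers summed to 36.8 and 32.5 FPKM without acid, with 5 of 10 at 1 FPKM or more, and to 96.3 and 92.2 FPKM with it, with 10 of 10 and 5 called higher. Fibroblast markers, 13 of 13 at 1 FPKM, summed to 1386 and 1444 FPKM and 975 and 958 FPKM. Extraembryonic endoderm markers, 11 of 11, summed to 422 and 427 FPKM without and 277 and 304 FPKM with acid, and 3 were called lower. Granulosa markers summed to 1040.0 and 1092 FPKM and 1283 and 1253 FPKM, with 9 of 12. Blood and endothelial markers summed to 23.3 and 33.5 FPKM and 12.3 and 14.4 FPKM, with 2 to 3 of 9 at 0. The part of these cells in the lower mitosis levels was not tested.

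Within each library the median replication gene was set against the median mitosis gene. Their difference was 0.21 and 0.21 log2 in the untreated day 28 libraries and 0.58 and 0.54 log2 with crotonic acid, without overlap, and 0.00 and 0.29 log2 at day 16. In the lines table it was -0.73 log2 in granulosa cells and -0.57 to -0.34 log2 in the lines. There the median mitosis gene stood above the median replication gene in each library, which does not hold for every gene. In the table with ES cells the difference of medians was -0.55 log2 in granulosa cells, 0.18 in fibroblasts and -0.42 and -0.24 in ES cells. In the induction table it was 0.19 to 0.26 log2 in ESC, 0.27 to 0.38 in gPSC4, -0.04 to 0.28 and 0.09 to 0.24 in EpiLC of the 2 origins, 0.36 to 0.50 and 0.27 to 0.44 in PGCLC, and 0.40 to 0.50 in PGC.

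**Figure D4:**
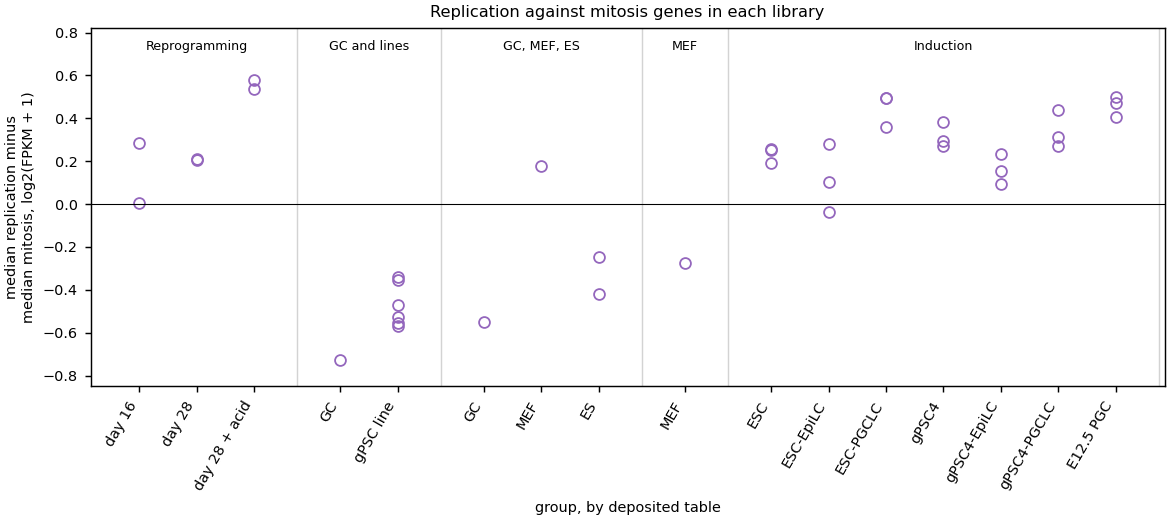
Each circle is 1 library, and the vertical axis is the median of log2(FPKM + 1) over replication genes minus that over mitosis genes, by group and deposited table. The crotonic acid libraries lie at 0.58 and 0.54 log2 and the untreated day 28 libraries at 0.21 and 0.21 log2, and panels should not be compared with each other.

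At the start of germ cell induction no difference between ESC and gPSC4 passed the test for any member. Mcm5 was at 331 ± 7.21 FPKM in ESC and 309.9 ± 10.5 in gPSC4 (SD, n = 3), and Pcna at 608 ± 13.7 and 601 ± 29.2 FPKM. Ccnb1 was at 914 ± 16.8 and 898 ± 1.89 FPKM, and Mki67 at 5.71 ± 0.372 and 5.96 ± 0.998 FPKM. In the table of the lines, the library of line gPSC4 had Ccnb1 at 157 FPKM and Mki67 at 25.2 FPKM. The low Mki67 level is thus that of the induction table, and why the tables differ was not tested. Of 39 genes limma called 0, where 0.00711% of 14059 genes tested were called, and 0 passed the adjusted p alone, where 0.0285% did. An unadjusted p under 0.05 was found for 2 genes, Ccna2 (cyclin A2) and Cdc20, both lower in gPSC4, where 4.21% of genes had one, and voom on recovered reads called 0. The largest difference was 0.20 log2, for Pola1, the catalytic subunit of DNA polymerase alpha, and the median 95% interval reached 0.16 log2 to either side. The 4 largest differences among replication genes were those of Pola1, Gins2, Cdc6 and Mcm5, at 0.20, 0.14, 0.11 and -0.10 log2, and among mitosis genes those of Ccna2, Cdc20, Cenpe and Top2a, at -0.17, -0.12, -0.10 and 0.06 log2.

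On the way to epiblast-like cells, members of both sets differed by less than 1 log2. Of 39 genes 0 were called by limma or voom from ESC to ESC-EpiLC, where 21.0% of genes were called, and 0 from gPSC4 to gPSC4-EpiLC, where 20.4% were. The unadjusted p was under 0.05 for 17 and 21 of 39, where it was for 52.0% and 51.1% of genes. By adjusted p alone 15 differed from ESC and 18 from gPSC4, where 45.7% and 44.8% of genes did. Of these members 9 and 12 passed in every fit with 1 library left out. The share of all genes that held in this way is not given here. Of replication genes 3 were higher and 6 lower from ESC, and 3 higher and 6 lower from gPSC4. Of mitosis genes 6 were higher and 0 lower from ESC, and 8 higher and 1 lower from gPSC4. Of all 14059 genes tested, 3146 were higher and 3280 lower from ESC, and 3193 higher and 3107 lower from gPSC4. Medians were -0.09 and -0.08 log2 for replication genes and 0.07 and 0.16 log2 for mitosis genes, beside 0.00 and 0.01 log2 for all genes.

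Plk1 and Cdc20 led the mitosis genes in both origins. Plk1 was at 158, 174 and 159 FPKM in ESC and at 239, 244 and 246 FPKM in ESC-EpiLC (0.57 log2, SE 0.08, adjusted p 4.8e-06). From gPSC4 it went from 158, 164 and 158 FPKM to 254, 238 and 249 FPKM (0.62 log2, SE 0.08, adjusted p 1.6e-06). In both origins all EpiLC libraries lay above all libraries of the line they came from. Cdc20 was at 385, 378 and 405 FPKM in ESC and at 550.4, 556 and 559.6 FPKM in ESC-EpiLC (0.51 log2, SE 0.05, adjusted p 2.4e-07), and at 345, 367 and 363 FPKM in gPSC4 and 568, 588 and 575 FPKM in gPSC4-EpiLC (0.68 log2, SE 0.05, adjusted p 4.2e-09). Bub1, the checkpoint kinase of kinetochores, was 0.50 and 0.50 log2 higher. Cdk1, the kinase partner of cyclin B, was 0.30 and 0.29 log2 higher, and Nusap1 was 0.38 log2 higher from gPSC4. Mki67 overlapped in both origins, at 5.55, 5.45 and 6.14 FPKM in ESC and 6.61, 5.38 and 5.91 FPKM in ESC-EpiLC. In gPSC4-EpiLC Mki67 was at 5.97 ± 0.874 FPKM, and Ccnb1 was at 941 ± 32.7 FPKM in ESC-EpiLC and 969.8 ± 26.6 in gPSC4-EpiLC (SD, n = 3).

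Among replication genes Pcna was lower and Rfc4 higher. Pcna was at 623, 599 and 601 FPKM in ESC and at 418, 457 and 463 FPKM in ESC-EpiLC (-0.45 log2, SE 0.06, adjusted p 9.4e-06), and at 570.1, 605 and 628 FPKM in gPSC4 and 444, 476 and 424 FPKM in gPSC4-EpiLC (-0.42 log2, SE 0.06, adjusted p 1.8e-05). Rfc4 was at 71.8, 76.4 and 79 FPKM in ESC and 93.2, 119.5 and 104 FPKM in ESC-EpiLC (0.47 log2, SE 0.09, adjusted p 0.00016), and 0.58 log2 higher from gPSC4. Gins2, of the GINS complex, was at 172, 179 and 171 FPKM in ESC and 231, 230.4 and 247 FPKM in ESC-EpiLC (0.44 log2, SE 0.09, adjusted p 0.00086), and 0.43 log2 higher from gPSC4. For these genes no EpiLC library overlapped its starting line. Cdt1 differed by -0.58 log2 from ESC (adjusted p 0.002) and by -0.18 log2 from gPSC4 (adjusted p 0.33), and the difference between those steps did not pass its own test (0.40 log2, SE 0.20, adjusted p 1). Pola1 was lower by adjusted p alone, at -0.42 and -0.47 log2. Mcm5 overlapped in both origins, at 335 ± 11.2 FPKM in ESC-EpiLC and 316 ± 8.45 in gPSC4-EpiLC.

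From EpiLC to PGCLC most members differed, in both directions and mostly by less than 1 log2. By adjusted p alone 31 of 39 differed from ESC-EpiLC and 30 of 39 from gPSC4-EpiLC, where 57.4% and 58.3% of genes did. Of these members 27 and 26 passed in every fit with 1 library left out, and the share of all genes that held so is not given here. With the minimum of 1 log2, 2 of 39 were called in each origin, where 29.3% and 29.7% of genes were, and voom called 2 in each. Of replication genes 11 were higher by adjusted p alone and 4 lower from ESC-EpiLC, and 11 and 4 from gPSC4-EpiLC. Of mitosis genes 13 were higher and 3 lower, and 12 and 3. Of all 14059 genes tested, 4562 were higher and 3510 lower from ESC-EpiLC, and 4557 higher and 3642 lower from gPSC4-EpiLC. Medians were 0.32 and 0.29 log2 for replication genes and 0.26 and 0.32 log2 for mitosis genes, beside 0.10 and 0.08 log2 for all genes. The EpiLC libraries here are those of the step before.

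Gins2 fell in both origins. It was at 231, 230.4 and 247 FPKM in ESC-EpiLC and at 73.6, 70.7 and 80.02 FPKM in ESC-PGCLC (-1.65 log2, SE 0.09, adjusted p 1.7e-11). From gPSC4-EpiLC it went from 243, 275 and 263 FPKM to 66.7, 84.7 and 79 FPKM (-1.75 log2, SE 0.09, adjusted p 7.1e-12). Its partner in the complex, Gins1, differed the other way, by 0.32 log2 (adjusted p 0.032) and 0.51 log2 (adjusted p 0.0015). Cdc45, which joins GINS and MCM in the active helicase, was at 47.7, 47.5 and 51.6 FPKM in ESC-EpiLC and 99, 84.9 and 85.2 FPKM in ESC-PGCLC (0.86 log2, SE 0.12, adjusted p 3.0e-06), and 0.88 log2 higher from gPSC4-EpiLC. Mcm10 was lower by adjusted p alone, with differences of -0.76 and -0.69 log2.

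Prim1, Rfc4 and the clamp were at higher levels in PGCLC. Prim1 was at 102, 92.2 and 105 FPKM in gPSC4-EpiLC and at 222, 220.2 and 200.4 FPKM in gPSC4-PGCLC (1.10 log2, SE 0.07, adjusted p 3.1e-11), and median-ratio scaling took this call to 0.996 log2, short of the minimum. It was at 108, 109.5 and 102 FPKM in ESC-EpiLC and 205, 195 and 200.3 FPKM in ESC-PGCLC (0.91 log2, SE 0.07, adjusted p 4.9e-10). Rfc4 was at 93.2, 119.5 and 104 FPKM and 195, 211 and 199.8 FPKM (0.93 log2, SE 0.09, adjusted p 1.7e-08). PGCLC did not overlap EpiLC for either gene. Pcna was 0.44 and 0.46 log2 higher, and all 5 genes of clamp, clamp loader, polymerase alpha, primase and flap removal passed the adjusted p upward in each origin.

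The MCM subunits differed in their direction. Mcm6 was at 273, 294 and 261 FPKM in gPSC4-EpiLC and 488, 522 and 518 FPKM in gPSC4-PGCLC (0.88 log2, SE 0.06, adjusted p 1.1e-10), and 0.83 log2 higher from ESC-EpiLC. Mcm3 was 0.78 and 0.72 log2 higher, and Mcm2 differed by -0.24 and -0.23 log2. Mcm5 overlapped, at 339, 343 and 322 FPKM in ESC-EpiLC and 344, 299 and 307 FPKM in ESC-PGCLC (-0.08 log2, SE 0.06, adjusted p 0.25). The ribonucleotide reductase subunits differed in opposite directions, Rrm1 by 0.66 and 0.71 log2 and Rrm2 by -0.71 and -0.57 log2.

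Ccnb2 led the mitosis genes. It rose from 194, 193 and 222 FPKM in ESC-EpiLC to 411, 450.3 and 461 FPKM in ESC-PGCLC (1.12 log2, SE 0.07, adjusted p 1.2e-10). From gPSC4-EpiLC it was at 209.9, 239 and 225 and then 429, 440.1 and 420.4 FPKM, short of the minimum (0.93 log2, SE 0.07, adjusted p 1.9e-09). Mki67 was at 6.61, 5.38 and 5.91 FPKM in ESC-EpiLC and 11.9, 10.2 and 10.6 FPKM in ESC-PGCLC (0.77 log2, SE 0.17, adjusted p 0.00057), and Cenpa at 424, 444 and 407 and 697, 747 and 733 FPKM (0.77 log2, SE 0.08, adjusted p 1.0e-07). All ESC-PGCLC libraries lay above all ESC-EpiLC libraries for these genes. Ccnb1 was 0.29 and 0.36 log2 higher, and Nusap1 0.75 log2 (adjusted p 1.2e-05) and 0.32 log2 (adjusted p 0.021) higher. Top2a was at 119, 122 and 108 FPKM in gPSC4-EpiLC and 191, 185 and 171 FPKM in gPSC4-PGCLC (0.65 log2, SE 0.07, adjusted p 2.1e-07). Plk1, Cdk1 and Birc5, the survivin subunit of the Aurora B complex, were the mitosis genes lower by adjusted p in both origins, with differences of -0.61 and -0.69 log2 for Plk1, -0.42 and -0.45 log2 for Cdk1 and -0.42 and -0.32 log2 for Birc5. Cdc20 overlapped, at 550.4, 556 and 559.6 FPKM in ESC-EpiLC and 496, 544 and 555 FPKM in ESC-PGCLC.

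**Figure D5:**
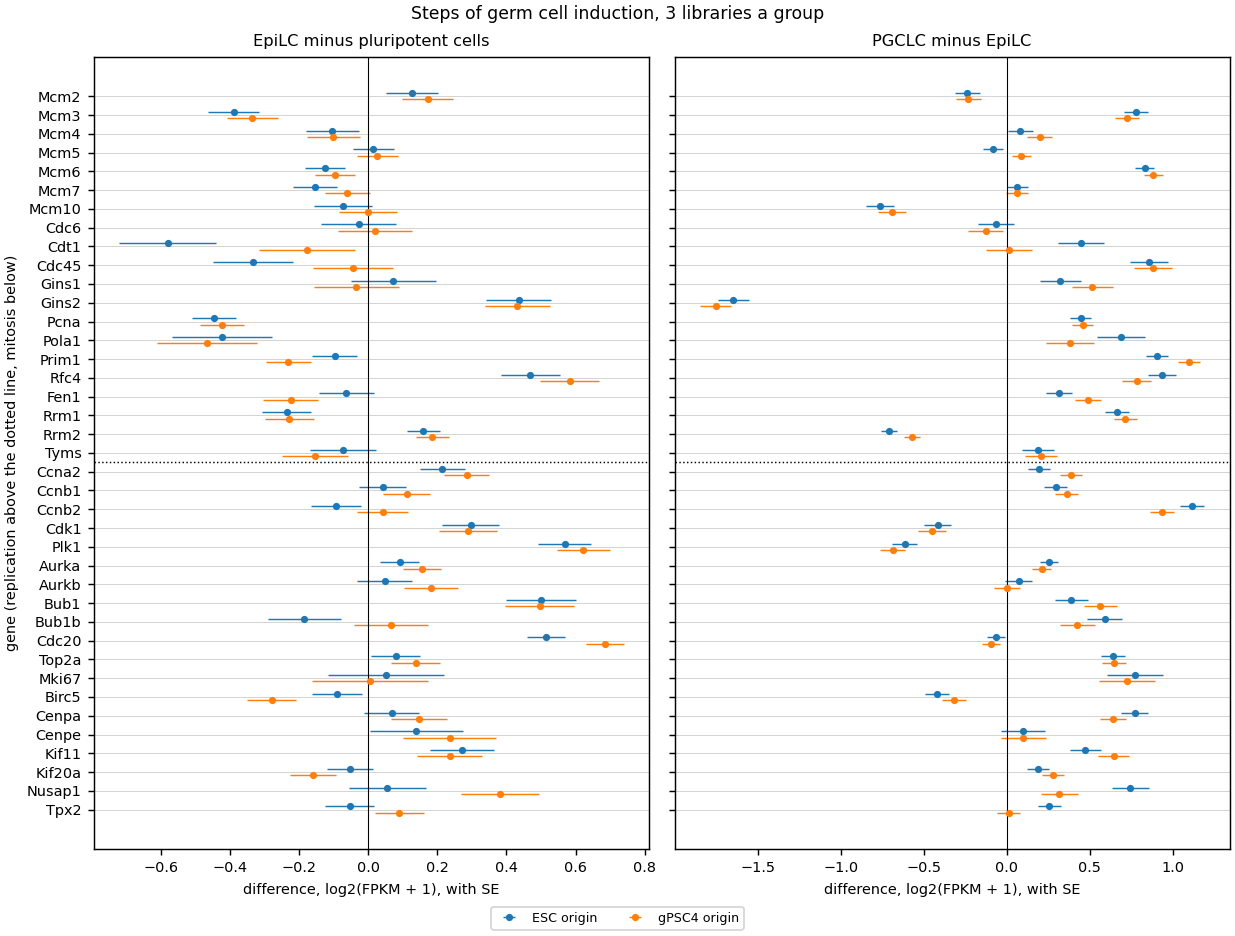
Points are differences in log2(FPKM + 1) with SE for each of 39 genes, in the step to EpiLC and in the step to PGCLC, for the ESC and the gPSC4 origin with 3 libraries a group. In the PGCLC step Gins2 lies at -1.65 and -1.75 log2 and Ccnb2 at 1.12 and 0.93 log2.

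In the EpiLC step some genes outside the 40 changed by more than any member. From ESC to ESC-EpiLC, Ccne1 rose from 127 to 405 FPKM (1.67 log2, SE 0.10, adjusted p 1.1e-10) and Cdkn1a, the p21 inhibitor, fell from 1216 to 368 FPKM (-1.73 log2, SE 0.13, adjusted p 1.5e-09). In the same step Mybl2 fell from 396 to 157 FPKM, and Pttg1, securin, from 172 to 76.1 FPKM. From ESC, 2 of 17 regulators rose and 1 fell, 2 of 19 transcription factors rose and 2 fell, 0 of 38 other replication genes rose and 2 fell, and 0 of 42 other mitosis genes rose and 1 fell. From gPSC4 the numbers that rose and fell were 2 and 1, 1 and 2, 1 and 2, and 0 and 0 in that order. These counts are of called genes, and 21.0% of all genes were called from ESC and 20.4% from gPSC4, in either direction.

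From ESC-EpiLC to ESC-PGCLC, Uhrf1, which brings the maintenance methyltransferase to newly copied DNA, fell from 165 to 32.3 FPKM (-2.33 log2, SE 0.14, adjusted p 4.0e-11). Slbp, which binds histone mRNA, rose from 349 to 902 FPKM (1.37 log2, SE 0.06, adjusted p 1.8e-13), Cenpf, a kinetochore protein, rose from 11.2 to 33.8 FPKM (1.51 log2, SE 0.12, adjusted p 3.9e-09), and E2f4, an E2F of repressor complexes, fell from 169 to 28 FPKM (-2.55 log2, SE 0.26, adjusted p 6.6e-08). Of other replication genes 2 rose and 2 fell from ESC-EpiLC, and 1 and 1 from gPSC4-EpiLC. Of other mitosis genes 5 rose and 1 fell, and 3 and 1. Of transcription factors 2 rose and 1 fell, and 1 and 1, and of regulators 4 rose and 1 fell, and 2 and 2. Here too called genes are counted, and 29.3% of all genes were called from ESC-EpiLC and 29.7% from gPSC4-EpiLC, in either direction.

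Between origins, no member passed the test at the EpiLC or PGCLC stage. Limma called 0 of 39 between gPSC4-EpiLC and ESC-EpiLC, where 0.0711% of genes were called and 0.185% passed the adjusted p alone, and 0 of 39 between gPSC4-PGCLC and ESC-PGCLC, where 0.313% and 0.597% did. In both, 0 of 39 passed the adjusted p alone, 4 and 1 had an unadjusted p under 0.05, where 8.55% and 14.0% of genes had one, and voom called 0. Nusap1 differed most in EpiLC, at 74.1, 65.9 and 64.8 FPKM from ESC and 89.4, 97.6 and 75.1 FPKM from gPSC4 (0.35 log2, SE 0.11, adjusted p 0.29), and Cdc45 in PGCLC, at 99, 84.9 and 85.2 and 123, 96 and 96.8 FPKM (0.22 log2, SE 0.12, adjusted p 0.4). Among replication genes the 4 largest differences in EpiLC were those of Cdt1, Cdc45, Cdc6 and Pola1, at 0.32, 0.20, 0.15 and 0.15 log2, and among mitosis genes those of Nusap1, Bub1b, Birc5 and Aurkb, at 0.35, 0.24, -0.20 and 0.16 log2. In PGCLC they were those of Cdc45, Mcm10, Pola1 and Rrm2, at 0.22, 0.16, -0.16 and 0.14 log2, and of Bub1, Kif11, Top2a and Ccnb1, at 0.19, 0.17, 0.13 and 0.11 log2. The steps themselves were compared between origins too. For the EpiLC step 0 of 39 were called or passed the adjusted p alone, where 0.0142% and 0.0142% of genes did, and for the PGCLC step 0 of 39, where 0.0854% and 0.0996% did. Unadjusted p was under 0.05 for 1 and 3 genes, where it was for 4.72% and 11.6% of all genes, and voom called 0. For the EpiLC step the largest differences between origins were those of Cdt1, Nusap1, Cdc45 and Bub1b, at 0.40, 0.33, 0.29 and 0.25 log2, and for the PGCLC step those of Cdt1, Nusap1, Pola1 and Tpx2, at -0.44, -0.43, -0.31 and -0.25 log2. The same EpiLC libraries enter both steps with opposite sign, so opposite values for a gene, as for Cdt1 and Nusap1, are not independent. Median 95% intervals reached 0.16 log2 to either side for the groups and 0.23 log2 for the steps.

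PGCLC of both origins were also set against the same PGC libraries. Mcm5 was at 316 ± 24 FPKM in ESC-PGCLC, 336 ± 15.7 in gPSC4-PGCLC and 326 ± 11.5 in PGC (SD, n = 3), and Pcna at 608 ± 40.9, 616 ± 39.6 and 631 ± 6.58 FPKM. Ccnb1 was at 1155 ± 80.9, 1252 ± 162 and 1343 ± 53.7 FPKM, and Mki67 at 10.9 ± 0.870, 10.5 ± 1.05 and 9.25 ± 1.01 FPKM. Limma called 0 of 39 for either origin, where 0.427% and 0.576% of genes were called, and 0 passed the adjusted p alone, where 0.846% and 1.06% did. Unadjusted p was under 0.05 for 5 and 2 genes, where it was for 13.9% and 13.1% of all genes, and voom called 0. Gins2 differed most, at 64.6, 55.5 and 61.9 FPKM in PGC beside 73.6, 70.7 and 80.02 FPKM in ESC-PGCLC (0.30 log2, SE 0.09, adjusted p 0.15) and 66.7, 84.7 and 79 FPKM in gPSC4-PGCLC (0.33 log2, SE 0.09, adjusted p 0.098). Gins2 included, the 4 largest from ESC-PGCLC were those of Gins2, Mcm4, Mcm2 and Fen1, at 0.30, -0.17, -0.12 and -0.10 log2, among replication genes and those of Ccnb1, Mki67, Birc5 and Cdk1, at -0.22, 0.22, 0.21 and 0.17 log2, among mitosis genes. From gPSC4-PGCLC they were those of Gins2, Mcm10, Cdc45 and Pola1, at 0.33, 0.20, 0.18 and -0.17 log2, and of Nusap1, Mki67, Plk1 and Bub1, at -0.18, 0.17, -0.14 and 0.12 log2. Medians were -0.03 and 0.02 log2 for replication genes and -0.01 and 0.05 log2 for mitosis genes. Outside the 40, E2f6, a repressive E2F, was called higher in ESC-PGCLC than in PGC (1.67 log2, SE 0.33, adjusted p 0.021).

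Cell type markers differed between these stages as well. Germ cell markers summed to 91.7 to 115 FPKM in EpiLC, 3274 to 3647 FPKM in PGCLC and 3582 to 3628 FPKM in PGC, with 11 of 11 at 1 FPKM or more in the latter groups. Blood and endothelial markers summed to 21.1 to 34.8 FPKM in EpiLC, 509.7 to 913 FPKM in PGCLC, with 6 to 7 of 9 at 1 FPKM or more, and 635 to 676 FPKM in PGC. Gonadal soma markers summed to 32.9 to 49.5 FPKM in EpiLC, 137 to 157 FPKM in PGCLC, with 9 of 10 at 1 FPKM or more, and 186 to 202 FPKM in PGC. Fibroblast markers summed to 358 to 492 FPKM in ESC and gPSC4 and to 33.1 to 49.4 FPKM in EpiLC. The part of these cells in the members' differences was not tested.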

How the data were processed

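The authors deposited 5 tables of FPKM per gene, 1 column per library, and the file headers and names give that unit. Per the submitters' processing notes the build was mm10 and the tools included HISAT2, Bowtie2, RSEM, DESeq2 and R 3.4.2, without a role or order; the annotation is not given in the sources used here. Per the labels' protocols, a Qiagen kit served for RNA and NEBNext Ultra for the libraries. Every column of per-library values was mapped to a group by its name, and the column labelled CS was read as crotonic acid, since the titles of those libraries name CA.

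Genes with at least 1 FPKM in at least 2 libraries (reprogramming table), 1 library (lines) or 3 libraries (induction) were kept, which left 13266, 13797 and 14059 genes. limma 3.58.1 in R 4.3.3, with a trended prior, was fitted to log2(FPKM + 1) over all libraries of a table, and p-values were adjusted over all genes tested (Benjamini-Hochberg, threshold 0.05). The fit was tested on simulated data. Whole reads could be recovered from the FPKM of the induction table for 16966 of 20354 genes, within a tolerance of 0.001 reads, and served for voom as an alternative; voom called 0 members in 9 induction comparisons and 2 members in each PGCLC step. Fits with no minimum difference, other scalings, another pseudocount, a replicate block and left-out libraries were alternatives. The table with ES cells, granulosa cells and fibroblasts, with single granulosa and fibroblast libraries, and the table of 1 fibroblast library were described without a test.

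Named in each comparison were the 4 replication and 4 mitosis genes with the largest differences, called ones first, with Mcm5, Pcna, Ccnb1 and Mki67, and from each other list up to 2 called genes in each direction. Members, lists and rules were chosen with earlier results of these data known.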

Additional observations from a re-analysis of the deposited data

How the results depend on the processing

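Each comparison was refitted with a pseudocount of 0.1, without the filter on low values, with median-ratio scaling, with quantile normalization, with the trend over transcript length removed, on the compared groups alone, with a replicate block, and with each library left out. The rule without a minimum difference and voom on reads recovered from FPKM were chosen after seeing the data. No called value changed sign. Of uncalled values for single genes 46 did, for 19 of 155 differences, each of at most 0.19 log2 as reported, as did 10 medians of a set, each of at most 0.03 log2 as reported. Of values and counts for the members as a set, 698 kept their size and 42 moved. Of those for single genes 2057 kept their side of the call, 2 lost a call and 2 gained one.

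From day 16 to day 28 the members called went from 1 to 0 under quantile normalization. The 7 passing by adjusted p alone became 4 without the filter, 4 with median-ratio scaling, 2 under quantile normalization, 2 on the compared groups alone, 4 with the length trend removed, and 1 to 21 with 1 library left out, with 1 passing in every such fit. Medians became 0.0328, 0.0342 and 0.0869 log2 for replication genes and 0.122, 0.0197 and 0.125 log2 for mitosis genes under median-ratio scaling, quantile normalization and removal of the length trend. With crotonic acid, 1 member, Mki67, was called with the pseudocount of 0.1 (-1.01 log2), and the 10 passing by adjusted p alone became 5 without the filter, 22 on the compared groups alone and 0 with any 1 library left out. Medians became -0.15 log2 under quantile normalization and -0.25 to -0.16 log2 with 1 library left out for replication genes, and -0.68 log2 with the pseudocount of 0.1 and -0.69 to -0.56 log2 with 1 library left out for mitosis genes.

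Between lines and granulosa cells, medians for replication genes became 2.73 log2 with the pseudocount of 0.1, 2.49 with median-ratio scaling, 2.43 with the length trend removed and 2.51 to 2.62 with 1 library left out, and for mitosis genes 2.59 with the pseudocount of 0.1 and 2.27 with the length trend removed. From ESC-EpiLC to ESC-PGCLC, median-ratio scaling gave 0.21 log2 for replication and 0.15 for mitosis genes, quantile normalization gave 0.28 for replication genes, leaving out 1 library gave 0.26 to 0.36, and Rfc4 passed the minimum without ESC-EpiLC replicate 2 (1.03 log2). From gPSC4-EpiLC to gPSC4-PGCLC, median-ratio scaling left 1 member called, with a median of 0.21 log2 for mitosis genes. Against PGC, 0 to 1 gPSC4-PGCLC members passed by adjusted p alone with 1 library left out, the higher number without gPSC4-PGCLC replicate 1. The cause was not tested for any of these.

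Libraries share replicate numbers, but no label ties same-numbered libraries to each other. In the induction groups the correlation of their deviations was -0.03 to 0.19 over the 3 numbers. It was above 0.1 for every number in none of these groups, so the numbers were not taken as pairs there. In the reprogramming table it was 0.30 from day 16 to day 28 and 0.15 with crotonic acid, each with 2 numbers only. There replicate 1 also differed from 2 with transcript length in the same direction in each group. Whether libraries of a number share a batch was not tested, and the main fit has no replicate block. With a replicate block the members passing by adjusted p alone numbered 8 from day 16 to day 28, 13 with crotonic acid, 19 from gPSC4 to gPSC4-EpiLC, 31 from ESC-EpiLC and 29 from gPSC4-EpiLC to PGCLC, and no member called changed. No paired analysis was possible because the names of the ESC columns are titles of another group, so that their numbers could not be tied to single ESC libraries, for comparisons with ESC, and because each line has 1 library, for the lines. With 2 libraries a group in the reprogramming table, intervals reached a median of 0.30 log2 to either side, which limits the differences that could be detected there.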
